A study of Homo sapiens with 9 samples.

Results

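NFE2L2, which encodes the transcription factor NRF2, and 9 of its antioxidant target genes were described across 9 RNA sequencing libraries of LAPC4, an androgen-responsive human prostate cancer cell line. The members were taken by symbol: NFE2L2, NQO1, HMOX1, GCLC, GCLM, GSR, TXN, TXNRD1, SRXN1 and PRDX1, 10 of the 60325 gene rows in each library. All 10 had a row, and 9 of them had enough counts to be tested among 16796 genes. SRXN1 did not. The libraries were 3 of control cells (titled NT), 3 of cells labelled UGT2B28 knockdown (titled KD4) and 3 of cells labelled UGT2B28 rescue (titled KD4OE), where the gene was put back by overexpression in knockdown cells. All were taken at day 30, and all cells were grown in the same medium with serum. UGT2B28 encodes a UDP-glucuronosyltransferase that conjugates steroids. A protocol text given alike for all 9 samples names 3 ug/mL puromycin for the knockdown and 1 mg/mL G418 for the rescue. It does not say which drug, if any, the controls received, so a drug and the construct it selects cannot be told apart. No label says that replicates were separate cultures, and p-values therefore reflect the scatter of these 9 libraries alone, possibly a technical one.

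NRF2 is a basic leucine zipper factor that the adaptor KEAP1 holds in the cytoplasm and marks for destruction by a CUL3 and RBX1 ubiquitin ligase. When electrophiles or oxidants modify KEAP1, NRF2 accumulates, pairs with a small MAF protein and binds antioxidant response elements near genes for glutathione synthesis, thioredoxin cycling and quinone reduction. NRF2 is regulated mainly as a protein, so the level of NFE2L2 mRNA is not a measure of its activity. In prostate epithelium these enzymes detoxify peroxides and quinones.

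The antioxidant response element was searched as its core TGACNNNGC on both strands of RefSeq promoter windows (GRCh38.p14), from 250 bases before to 50 after each start. Of the 10 genes, 7 had an entry, with 9 windows in all. A match was found in 3 of the 9 windows, 1 of GCLM and 2 of TXNRD1, and in 13.3% of all 35116 windows. GCLM had 1 match, 34 bases before its start. TXNRD1 had a match 102 bases before its downstream start, and 2 in the window of its upstream start, at 99 and 8 bases before it. TXN, NQO1, GCLC, NFE2L2 and SRXN1 had none in their windows, which says only that these letters are not there. HMOX1, PRDX1 and GSR had no entry. The 250 bases before the start are shown for TXN and NQO1, the 2 members that passed a test below, and for TXNRD1 (downstream start) and GCLM, which held a match and passed none. All read 5′ to 3′ on the gene's strand, and capitals mark the match, which lies on the opposite strand in both genes. The windows are chr9:110256508-110256757 (minus strand) for TXN, chr16:69726561-69726810 (minus) for NQO1, chr12:104286782-104287031 (plus) for TXNRD1 and chr1:93909431-93909680 (minus) for GCLM.
TXN: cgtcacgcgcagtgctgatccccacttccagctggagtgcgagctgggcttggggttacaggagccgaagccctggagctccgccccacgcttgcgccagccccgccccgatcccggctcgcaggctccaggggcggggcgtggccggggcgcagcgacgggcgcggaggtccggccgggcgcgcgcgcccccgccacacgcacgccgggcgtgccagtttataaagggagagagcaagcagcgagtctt
NQO1: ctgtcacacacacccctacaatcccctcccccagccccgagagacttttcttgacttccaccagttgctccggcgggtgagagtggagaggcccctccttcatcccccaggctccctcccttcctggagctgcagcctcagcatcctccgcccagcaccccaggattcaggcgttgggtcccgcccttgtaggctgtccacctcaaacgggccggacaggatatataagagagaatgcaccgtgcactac
TXNRD1: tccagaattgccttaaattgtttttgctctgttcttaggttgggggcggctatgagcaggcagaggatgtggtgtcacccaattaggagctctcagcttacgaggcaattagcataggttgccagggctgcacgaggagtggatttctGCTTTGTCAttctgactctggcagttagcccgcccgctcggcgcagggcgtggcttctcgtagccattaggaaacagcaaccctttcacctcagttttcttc
GCLM: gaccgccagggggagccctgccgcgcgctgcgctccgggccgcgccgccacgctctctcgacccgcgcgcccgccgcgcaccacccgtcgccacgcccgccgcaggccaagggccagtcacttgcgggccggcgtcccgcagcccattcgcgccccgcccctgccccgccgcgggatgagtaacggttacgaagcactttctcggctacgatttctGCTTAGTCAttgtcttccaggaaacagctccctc

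The libraries held 8132206 to 14185252 gene counts. UGT2B28 itself, in CPM (counts scaled to a common library size with TMM factors), measured 5.12, 5.10 and 7.80 in the controls, against 8.48, 6.18 and 3.05 under the knockdown label and 75.1, 92.9 and 53.6 after rescue. Libraries 1 and 2 under that label thus lay within or above the controls, and library 3 was the lowest of all 9. The change against control was -0.04 (log2, edgeR adjusted p = 0.957) for the 3 together, 0.25 (adjusted p = 0.512) without library 3 and -1.01 (adjusted p = 0.134) with library 3 alone. None of these passed, and "knockdown" is used here for the library labelled so, never for a measured loss. Rescue libraries held 12.6-fold more UGT2B28 than knockdown libraries (log2 fold change 3.66, SE 0.332, edgeR adjusted p = 0.00126). In bulk RNA, fewer cells of a type and less RNA per cell cannot be told apart. Knockdown library 3, the one with the lowest UGT2B28, also stood apart from libraries 1 and 2 in other ways: mitochondrially encoded RNAs took 15.1%, 15.8% and 10.2% of counts in libraries 1, 2 and 3, against 7.62% to 8.57% in control and 5.79% to 7.90% in rescue. The prostate luminal markers KLK3 and KRT8 had 5935 to 16849 and 6909 to 17725 counts per library. Summed, 6 stromal markers reached 20.3 to 69.5 CPM for controls, 42.5 to 48.7 under the knockdown label and 49.3 to 127 after rescue. Of 5 blood cell markers, PTPRC, LYZ and HBB were at 0 counts throughout, and CD3E and CD79A had at most 2 and 4 counts. Of 3 endothelial markers, PECAM1 and CDH5 had at most 3 and 7 counts, and VWF had 10 to 46. The basal keratins KRT5 and KRT14 and TP63 together reached at most 3.71 CPM. The part of stromal RNA in the results below was not tested.

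In control cells the 9 tested genes spanned a wide range of levels per length (CPM per kb of exon). PRDX1, a peroxiredoxin that reduces hydrogen peroxide, was highest at 328 ± 11.3 CPM per kb (SD, n = 3), rank 66 of 12458 protein-coding genes. GSR, which regenerates reduced glutathione, followed at 123 ± 2.13 CPM per kb, and TXN, the thioredoxin that passes electrons to peroxiredoxins, at 87.6 ± 5.43. The quinone reductase gene NQO1 stood at 19.2 ± 0.925 and TXNRD1, the reductase that recharges thioredoxin, at 15.8 ± 0.701 CPM per kb. GCLC, the catalytic subunit of the first enzyme of glutathione synthesis, stood at 6.86 ± 0.299, NFE2L2 at 6.16 ± 0.121, GCLM, the modifier subunit of that enzyme, at 1.95 ± 0.145 and HMOX1, a haem-degrading enzyme, at 1.49 ± 0.115 CPM per kb. No neighbours in this order overlapped among the control libraries. The order depends on the length used, here all annotated exons of a gene merged, 6708 bases for TXNRD1 and 3254 for NQO1. With their longest transcripts, of 4277 and 2912 bases, TXNRD1 would stand above NQO1. In the knockdown-labelled libraries GSR overlapped TXN, GCLC overlapped NFE2L2 and HMOX1 overlapped GCLM, and in rescue TXNRD1 overlapped NQO1 and HMOX1 overlapped GCLM.

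**Figure D1:**
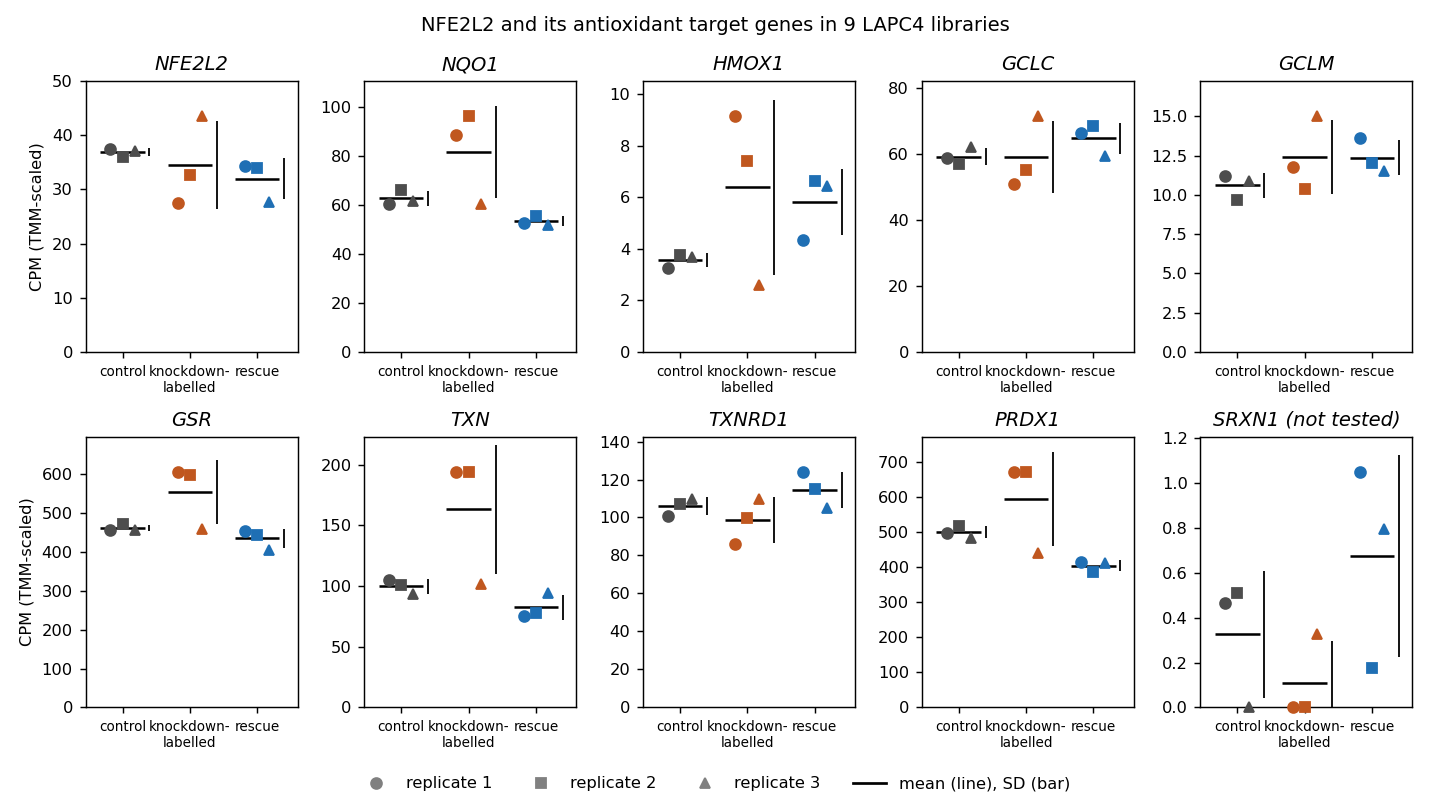
CPM (TMM-scaled, linear axis from 0) of each gene in each library, 3 per group, with the mean as a line and the SD as a bar, which is cut at 0 for SRXN1. In the knockdown-labelled group the circle and square of TXN (194 and 194 CPM) lie above every other library, while the triangle (102 CPM) lies among the controls.

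Most of the 9 genes followed 1 of 2 patterns across the knockdown-labelled libraries. The share of all genes with either pattern was not counted. NQO1, HMOX1, GSR, TXN and PRDX1 lay above the control range in knockdown libraries 1 and 2, and 0 of these 5 did so in library 3. NFE2L2, GCLC and TXNRD1 lay below the control range in libraries 1 and 2. In library 3 NFE2L2 and GCLC lay above it, and TXNRD1, at 110 CPM, was level with the highest control at 110 CPM. GCLM was above the range in libraries 1 and 3 and within it in library 2. The median of the 9 genes relative to the control mean was 0.39, 0.38 and 0.04 (log2 CPM difference) in knockdown libraries 1 to 3. The rescue libraries, in the same order, gave -0.02, -0.06 and -0.08. These values carry the TMM factors, 0.793, 0.8 and 1.11 in knockdown libraries 1 to 3 and 1.04 to 1.06 in controls. With library size alone, knockdown-labelled against control was 0.015 for GSR, -0.016 for PRDX1, 0.12 for NQO1, 0.42 for TXN and 0.52 for HMOX1. The median of all genes tested then moved from 0.02 to -0.21.

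**Figure D2:**
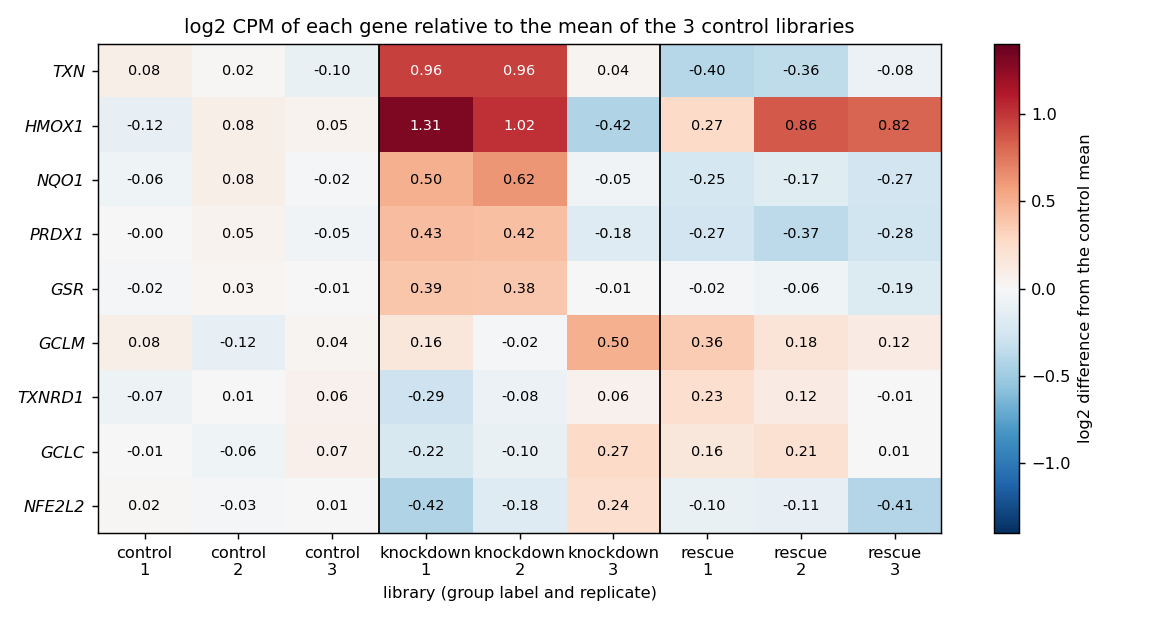
Difference of log2 CPM from the mean of the 3 controls for each gene (rows) in each library (columns), with the value printed in each cell; red is higher and blue is lower. TXN reads 0.96, 0.96 and 0.04 in knockdown libraries 1, 2 and 3, and NFE2L2 reads -0.42, -0.18 and 0.24.

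The regulator NFE2L2 did not pass in any comparison. It lies on chromosome 2, 177227595 to 177392697 on the minus strand (GRCh38, GENCODE 29). Of its annotated exon bases, 17.6% also lie in AC019080.1 on the same strand, which held 0 counts in every library. A further gene on the opposite strand, AC079305.1, covers 3.18% and held 3 to 37 counts. Reads of these parts may be missing from the NFE2L2 count. NFE2L2 measured 37.4, 36.0 and 37.1 CPM in the controls, against 27.5, 32.6 and 43.5 in the knockdown libraries and 34.3, 34.0 and 27.6 after rescue. The rescue values lay below the controls, and the knockdown-labelled values lay on both sides of them. The log2 fold change was -0.09 (SE 0.169, adjusted p = 0.809) for knockdown-labelled against control, -0.11 (SE 0.168, adjusted p = 0.714) for rescue against knockdown-labelled and -0.20 (SE 0.168, adjusted p = 0.754) for rescue against control. The first of these was 0.21 with knockdown library 3 alone and the second was 0.09 without it.

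TXN and NQO1 were the 2 of 9 tested genes that fell in rescue against knockdown-labelled libraries, and none rose. Of all genes tested, 5.39% were called lower and 9.83% in either direction. TXN lies on chromosome 9, 110243811 to 110256640 on the minus strand. TXN measured 105, 101 and 93.2 CPM in the controls, against 194, 194 and 102 in the knockdown libraries and 75.5, 77.9 and 94.5 after rescue. Rescue and knockdown-labelled libraries did not overlap, but knockdown library 3 exceeded the highest rescue library by little and lay within the controls. TXN fell by 0.99 on the log2 scale, a 1.98-fold difference (SE 0.216, 95% confidence interval -1.46 to -0.51, edgeR adjusted p = 0.0222). The change was -0.29 (adjusted p = 0.152) with knockdown library 3 alone and -1.24 (adjusted p = 3.07e-08) without it. The adjusted p was 0.0709 and 0.0863 without knockdown library 1 or 2 and 0.0962, 0.0932 and 0.0627 without rescue library 1, 2 or 3.

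NQO1, on chromosome 16 at 69706996 to 69726951 on the minus strand, measured 60.1, 65.9 and 61.7 CPM in the controls, against 88.4, 96.0 and 60.3 in the knockdown libraries and 52.5, 55.5 and 51.7 after rescue. All rescue values were below all 6 others. NQO1 fell by 0.62 on the log2 scale in rescue against knockdown-labelled libraries (1.53-fold, SE 0.158, 95% confidence interval -0.96 to -0.27, adjusted p = 0.0366). Its adjusted p was over the threshold without any single library other than knockdown library 3, from 0.0601 to 0.137, and was 2.53e-06 without that one. With library 3 as the lone knockdown library the change was -0.16 (adjusted p = 0.426), and with scaling by library size alone it was -0.33 (adjusted p = 0.120). In a fit of only the 2 groups compared the adjusted p was 0.112 for NQO1 and 0.0836 for TXN. On the opposite strand, an antisense gene covers 17.7% of the NQO1 exon bases and held 58 to 126 counts per library against 516 to 1088 for NQO1. The strand setting of the counting is not known here, so reads of the shared part may be missing from NQO1 or counted for the wrong gene.

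PRDX1 and GSR also had rescue values below all knockdown-labelled ones and did not pass by edgeR. PRDX1, on chromosome 1 at 45511036 to 45523047 on the minus strand, measured 498, 517 and 483 CPM in the controls, against 671, 670 and 440 in the knockdown libraries and 413, 386 and 412 after rescue. The rescue libraries were the 3 lowest of the 9. The log2 fold change of PRDX1 was -0.56 against knockdown-labelled (SE 0.166, adjusted p = 0.0585) and -0.31 against control (SE 0.166, adjusted p = 0.565). MMACHC, a cobalamin-processing gene on the opposite strand, shares 24.9% of the PRDX1 exon bases and held 0.48 to 0.63 times the PRDX1 count in each library, so PRDX1 is uncertain. GSR lies on chromosome 8 and measured 456, 471 and 457 CPM in the controls, against 606, 599 and 460 in the knockdown libraries and 454, 444 and 406 after rescue. Its log2 fold change against knockdown-labelled was -0.35 (SE 0.139, adjusted p = 0.127). DESeq2 called PRDX1 (-0.55, adjusted p = 0.0157), as did edgeR with no filter on low counts (adjusted p = 0.0200). Without knockdown library 3, PRDX1 was called at -0.73 (adjusted p = 9.06e-07) and GSR at -0.48 (adjusted p = 0.000138). Scaled by library size alone, edgeR gave -0.27 for PRDX1 (adjusted p = 0.127) and -0.08 for GSR (adjusted p = 0.683). The overlap below was counted on TMM-scaled CPM only. Counting TXN and NQO1, 4 of the 9 genes did not overlap as lower in rescue than in knockdown-labelled libraries, where 14% of all genes tested did so, and 0 of the 9 as higher, where 14.6% did so. The mitochondrial share of counts moved with these 4 genes over the knockdown-labelled libraries, and its part in the result was not tested.

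The thioredoxin reductase and the glutathione synthesis genes showed no call in any comparison of all 9 libraries. Without knockdown library 3, TXNRD1 at 0.30 (adjusted p = 0.0236) and GCLC at 0.29 (adjusted p = 0.0340) were called higher in rescue than in knockdown libraries, where 18.6% of all genes were. TXNRD1 (plus strand of chromosome 12, 104215779 to 104350305) measured 101, 107 and 110 CPM in the controls, against 86.1, 99.7 and 110 in the knockdown libraries and 124, 115 and 105 after rescue, with the groups overlapping throughout. Its change in rescue against knockdown-labelled libraries was 0.22 (log2, 95% confidence interval -0.06 to 0.49, adjusted p = 0.281). The ratio of TXN to TXNRD1 counts within a library, which needs no scaling between libraries, was 1.05, 0.95 and 0.85 for the controls, 2.26, 1.95 and 0.93 under the knockdown label and 0.61, 0.68 and 0.90 after rescue. Knockdown libraries 1 and 2 had the highest ratios of the 9, and library 3 lay within the controls. GCLC, on chromosome 6 at 53497341 to 53616970, measured 58.8, 56.9 and 62.1 CPM in the controls, against 50.9, 55.3 and 71.5 in the knockdown libraries and 66.4, 68.7 and 59.6 after rescue. GCLM, on chromosome 1 at 93885205 to 93909456, measured 11.2, 9.69 and 10.9 CPM in the controls, against 11.8, 10.4 and 15.0 in the knockdown libraries and 13.6, 12 and 11.5 after rescue. The 2 subunits of the same enzyme kept a GCLC to GCLM count ratio of 4.30 to 5.87 over the 9 libraries. Their intervals for rescue against knockdown-labelled libraries ran from -0.17 to 0.44 (log2) for GCLC and from -0.41 to 0.40 for GCLM.

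HMOX1 and SRXN1 had the lowest counts of the 10 genes. HMOX1, on chromosome 22 at 35380361 to 35394214, had 28, 37 and 36 counts in the controls, 68, 84 and 24 under the knockdown label and 66, 76 and 65 after rescue. Scaled, HMOX1 measured 3.26, 3.78 and 3.69 CPM in the controls, against 9.15, 7.42 and 2.61 in the knockdown libraries and 4.35, 6.65 and 6.46 after rescue. Rescue lay above control in 3 of 3 libraries (log2 fold change 0.69, SE 0.401, adjusted p = 0.600), and knockdown library 3 was the lowest of all 9. SRXN1, the sulfiredoxin that repairs overoxidised peroxiredoxins, had 4, 5 and 0 counts in the controls, 0, 0 and 3 under the knockdown label and 16, 2 and 8 after rescue. A count of 0 allows up to 3 counts by counting error alone, so no fold is given. Of the SRXN1 exon bases, 85.0% also lie in a protein-coding gene model on the same strand, whose reads cannot be told apart from those of SRXN1. That gene held 0 to 7 counts per library. Reads matching several genes were set aside, so reads of the shared part may be missing from both rows. The low SRXN1 counts are therefore no measure of low expression.

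Against control, none of the 9 genes passed in the knockdown-labelled or in the rescue libraries. In knockdown-labelled against control libraries, 0.00595% of all genes tested were called by edgeR. An unadjusted p under 0.05 was found for 2 of the 9 genes and for 19.1% of all genes: TXN (log2 fold change 0.71, adjusted p = 0.126) and NQO1 (0.38, adjusted p = 0.224). None of the 9 had knockdown values clear of the control values, where 21.2% of all genes did. DESeq2 and limma-voom called 0 of the 9 as well. TXN was just over the threshold by DESeq2 (0.71, adjusted p = 0.0501), which called 6.43% of all genes it tested. Without knockdown library 3, 5 of the 9 were called higher, where 18.1% of all genes tested in that fit were: TXN (0.96), HMOX1 (1.20), NQO1 (0.56), PRDX1 (0.43) and GSR (0.38). In rescue against control libraries 0.149% of all genes tested were called by edgeR, and 0 of the 9 genes had an unadjusted p under 0.05 or were called by DESeq2 or limma-voom. PRDX1 was called lower there without knockdown library 3 (-0.31, adjusted p = 0.0137), where 2.86% of all genes were. GCLM and HMOX1 were higher in rescue than in control without overlap, and NFE2L2, NQO1, PRDX1 and GSR lower, so that 6 of 9 did not overlap, against 12.8% higher, 13.6% lower and 26.4% in either direction of all genes tested. The 3 comparisons share libraries, so each gene's changes are not independent of each other.

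**Figure D3:**
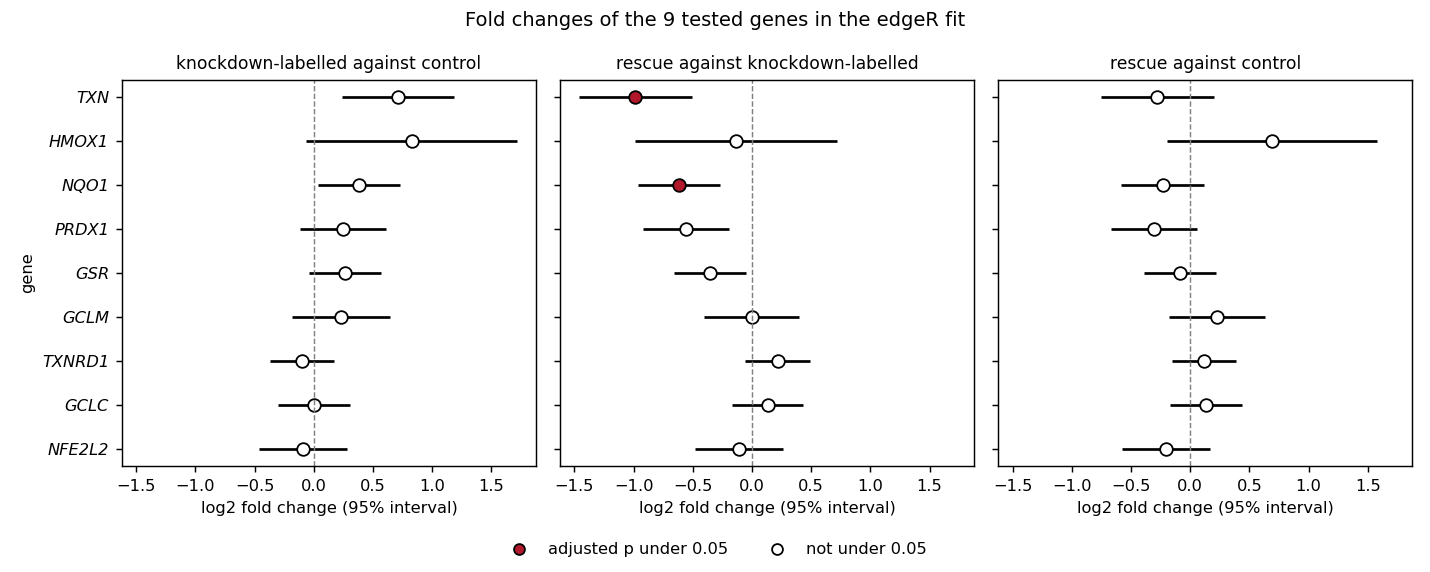
Log2 fold change (point) and 95% confidence interval (line) of the 9 tested genes in the 3 comparisons of the edgeR fit; filled points passed. TXN at -0.99 and NQO1 at -0.62 in rescue against knockdown-labelled libraries are the filled points.

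Of 91 further redox genes in 5 lists, 77 were tested, and in rescue against knockdown-labelled libraries 3 rose and 13 fell, where 4.44% of all genes tested were called higher and 5.39% lower. Their median log2 fold change was -0.32, against 0.00 over all genes. The regulators held the 3 rises: of 11 genes MAFK (0.95), MAFG (0.67) and NFE2L1 (0.44) rose and RBX1 (-0.92) fell, with a median of 0.17. RBX1 was at 128, 125 and 55.7 CPM in knockdown libraries 1, 2 and 3, the third within the 49.9 to 58.0 CPM of rescue, and its change was -0.01 (adjusted p = 0.968) with library 3 alone. With library size alone RBX1 was at -0.60 (adjusted p = 0.0621). MAFK and MAFG encode small MAF partners of NRF2, and NFE2L1 encodes the related factor NRF1. MAFK measured 55.4, 55.7 and 64.8 CPM in the controls, against 49.1, 50.1 and 39.3 in the knockdown libraries and 74.1, 87.6 and 106 after rescue, with rescue above all 6 others (SE 0.155, adjusted p = 0.00944). Library 3 was the lowest of the knockdown-labelled 3, and with it alone the change was 1.20 (adjusted p = 0.00043). MAFG measured 43.3, 41.4 and 37.5 CPM in the controls, against 33.8, 27.6 and 31.9 in the knockdown libraries and 45.8, 48.0 and 54.5 after rescue (SE 0.128, adjusted p = 0.0149). The 3 groups did not overlap, and with knockdown library 3 alone the change was 0.65 (adjusted p = 0.00942).

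Glutathione genes fell in 4 of 24 tested cases, where 5.39% of all genes tested fell, and rose in 0. Their median log2 fold change was -0.47. MGST1, a membrane-bound glutathione transferase, fell by 0.91 on the log2 scale (SE 0.112, adjusted p = 0.00695). MGST1 measured 56.0, 54.9 and 51.2 CPM in the controls, against 76.7, 79.2 and 74.9 in the knockdown libraries and 38.0, 45.7 and 39.0 after rescue. Here the 3 knockdown-labelled libraries were alike, the 3 groups did not overlap, and the change was -0.85 (adjusted p = 0.000619) with library 3 alone. GPX4, which reduces lipid peroxides, fell by 0.97, from 985, 907 and 446 CPM under the knockdown label to 410, 341 and 442 CPM after rescue, and stood at -0.14 (adjusted p = 0.484) with library 3 alone. The other falls were CHAC2 (-0.88), a glutathione-degrading enzyme, and the glutaredoxin GLRX2 (-0.52).

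Thioredoxin and peroxiredoxin genes other than the 10 fell in 5 of 18 tested cases and rose in 0, with a median of -0.50. Of all genes tested, 5.39% fell. The 5 were the peroxiredoxins PRDX2 (-0.62), PRDX3 (-0.73) and PRDX6 (-0.65), TXNIP (-0.49), which binds and inhibits thioredoxin, and the thioredoxin-domain gene TXNDC9 (-0.56). With knockdown library 3 alone PRDX3 stood at -0.08 and PRDX6 at -0.15, and TXNIP kept its call at -0.38 (adjusted p = 0.0396). Of 17 further NRF2 targets tested, CBR3 (-0.79) and CBR1 (-0.69), which reduce carbonyl compounds, and the epoxide hydrolase EPHX1 (-0.61) fell and 0 rose, with a median of -0.20. CBR1 and CBR3 are neighbouring paralogs. CBR1 overlapped between the groups, with 31.9 CPM in knockdown library 3 and 33.1 CPM in rescue library 3. With knockdown library 3 alone CBR1 stood at -0.17 and EPHX1 at -0.20. None of 7 superoxide and peroxide enzymes passed by edgeR, 2 had an unadjusted p under 0.05, where 28.3% of all genes did, SOD1 at -0.70 (adjusted p = 0.119) and catalase, CAT, at -0.32 (adjusted p = 0.143), and their median was -0.32. Without knockdown library 3, 6 of the 77 genes were called higher and 44 lower, where 18.6% and 20.4% of all genes tested in that fit were. Without any other single library 2 to 6 of the 77 were called, MAFK and MGST1 each time, where 0.776% to 6.13% of all genes were. Scaled by library size alone, 8 of the 77 genes rose and 2 fell, where 7.9% of all genes tested rose and 1.37% fell. The median of all genes tested moved to 0.24.

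**Figure D4:**
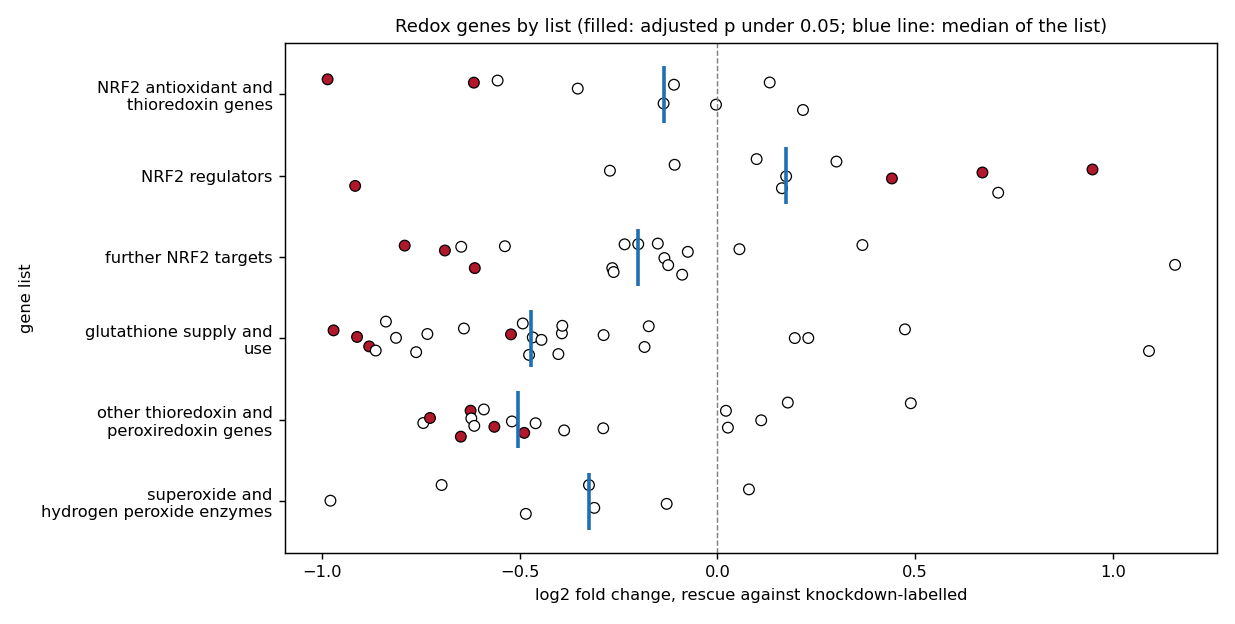
Log2 fold change of each tested gene in rescue against knockdown-labelled libraries, 1 point per gene, by list, with the 9 tested genes of the report in the top row; filled points passed and the blue line is the list's median (points are spread vertically only for legibility). The regulators hold the 3 filled points above 0, and the blue lines of glutathione (-0.47) and thioredoxin (-0.50) genes lie left of the others.

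In both comparisons with control 0 of the 77 passed by edgeR. In knockdown-labelled against control libraries the unadjusted p was under 0.05 for 20 of the 77 genes, against 19.1% of all genes tested, while DESeq2 called 5, against 6.43% of all genes it tested, and limma-voom 0. Without knockdown library 3, edgeR called 31 higher and 3 lower, against 18.1% and 14.8% of all genes tested in that fit. MGST1 (0.51, adjusted p = 0.0781), the glutaredoxin GLRX (0.91, adjusted p = 0.0781), the NRF2 target PIR (0.82, adjusted p = 0.0960) and KEAP1 (-0.40, adjusted p = 0.112) did not overlap between the groups. Nor did TXNDC9 (0.44, edgeR adjusted p = 0.174) and CAT (0.25, edgeR adjusted p = 0.349). Of the 77 genes, 10 were higher and 6 lower without overlap, near the 11% and 10.2% of all genes tested. KEAP1 averaged 71.7 ± 5.36 CPM for controls, 54.4 ± 5.24 under the knockdown label and 67.0 ± 1.37 after rescue (SD, n = 3). In rescue against control libraries the unadjusted p was under 0.05 for 8 of the 77 genes, near the 10.5% of all genes tested, and calls by DESeq2 numbered 2, against 1.94% of all genes. MAFK (0.60, adjusted p = 0.165) and MAFF (0.85, adjusted p = 0.262), a further small MAF, were higher without overlap. So were the NRF2 target ABCC1 (0.30, edgeR adjusted p = 0.420) and SESN3 (0.34, edgeR adjusted p = 0.509). CBR3 (-0.70, adjusted p = 0.224), MGST1 (-0.40, adjusted p = 0.208) and SESN1 (-0.74, adjusted p = 0.184), a sestrin, were lower without overlap. So were GSTO1 (-0.63, edgeR adjusted p = 0.415), SOD3 (-0.90, edgeR adjusted p = 0.589) and SOD2 (-0.15, edgeR adjusted p = 0.684). Of the 77 genes, 12 were higher and 26 lower without overlap in rescue against control, where 12.8% and 13.6% of all genes tested were.

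The genes whose profile over the 9 libraries was most like that of TXN were ATP5PF, AK6, RPL5, MRPL47 and ATP5PD, with a root mean square difference of centred log2 CPM of 0.063 to 0.074, against a median of 0.50 over 9370 protein-coding genes with a mean of at least 10 CPM. Among the members NQO1 came nearest to TXN (0.21, place 435), then PRDX1 (0.23, place 559) and GSR (0.31, place 1333), while TXNRD1 came at place 6744. For NFE2L2 the nearest were ZNF451, SMARCD1, RAB3IP, CNOT2 and GXYLT1 (0.056 to 0.064, median 0.30). GCLC was the nearest member to NFE2L2 (0.15, place 645), followed by TXNRD1 (0.18, place 1140), and TXN was the farthest of those ranked (0.58, place 8721).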

How the data were processed

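RNA sequencing libraries were made from total RNA of LAPC4 cells. The submitters' processing notes name FastQC, cutadapt, STAR, HTSeq and hg38, and no version, setting, strand or annotation was known here. The authors deposited whole-number read counts per gene symbol, not normalized, in 1 file per library. Rows for reads without a gene stayed out of library sizes and tests: 43.7% to 48.7% of reads fell outside features, 2.36% to 3.14% matched several genes and 7.67% to 11.6% mapped to more than 1 place.

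The test was edgeR's quasi-likelihood F test (edgeR 4.0.16, R 4.3.3) on the counts of all 9 libraries in 1 fit, after filterByExpr at a minimum count of 10 and TMM scaling, which left 6 residual degrees of freedom. Adjusted p-values are Benjamini-Hochberg values over 16796 genes, with a threshold of 0.05. The SE was obtained as the size of the log2 fold change over the root of F. The depth of 8132206 to 14185252 counts limits genes of low count. Exon lengths, of all exons of a gene merged, come from GENCODE 29, and promoters from RefSeq (GRCh38.p14). Log2 CPM used a prior count of 2.

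The members, lists and tests were chosen with earlier results of these data known. All 10 members were named; of each list, up to 5 genes that passed, or else up to 2 with the smallest p, of which those not overlapping are given. Alternatives were DESeq2 1.42.0, limma-voom (limma 3.58.1), other scalings, filters and sets of libraries, and a replicate block.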

Additional observations from a re-analysis of the deposited data

How the results depend on the processing

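The number of the 9 tested genes that passed was 2 in rescue against knockdown-labelled libraries; it was 3 with no filter on low counts and 3 with DESeq2 (TXN, NQO1 and PRDX1 each time), 1 (TXN) with library size alone, 0 with only the 2 groups compared, 0 without knockdown replicates 1 and 2, and 0 to 6 without 1 library. For knockdown-labelled against control the 0 became 1 with no filter on low counts and 0 to 5 without 1 library, and for rescue against control 1, PRDX1 each time, with only the 2 groups compared or without knockdown replicates 1 and 2, and 0 to 1 without 1 library. Of the further redox genes, 16 passed in rescue against knockdown-labelled libraries, 10 with library size alone, 27 with no filter, 28 with DESeq2, 0 with only the 2 groups and 2 to 50 without 1 library. Against control the 0 for knockdown-labelled libraries became 9 with no filter, 5 with DESeq2, 13 without knockdown replicates 1 and 2 and 0 to 34 without 1 library, and the 0 for rescue became 3, 2, 7 and 0 to 12, and 6 with only the 2 groups. The highest of each range without 1 library is that without knockdown replicate 3. Of all genes tested in rescue against knockdown-labelled libraries, 9.83% were called, 9.27% with library size alone and 7.52% with no filter. DESeq2 called 16.1% of them, a fit of only the 2 groups 0.0426% and fits without 1 library 0.776% to 39%. For knockdown-labelled against control the share was 0.00595%, 2.98% with no filter, 6.43% with DESeq2 and 0% to 32.9% without 1 library. For rescue against control it was 0.149%, 1.14%, 1.94% and 0.00576% to 7.38% in the same order, and 5.87% with only the 2 groups. Where 1 knockdown library is left, it is assumed to vary like the other groups.

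With the replicate number as a block, 0 of the 9 genes and 3 of the further genes passed in rescue against knockdown-labelled libraries. Of all genes tested in that fit 2.63% passed. TXN was at -0.95 (adjusted p = 0.0635) and NQO1 at -0.60 (adjusted p = 0.0677). No pairing by number was seen: same-numbered libraries had correlations of deviations from -0.355 to 0.078. A library correlated best with its own number in 2 of 18 cases. Knockdown library 3 stood apart from libraries 1 and 2, which both correlated most with rescue library 3 (0.269 and 0.265). The check therefore cannot decide whether the numbers mark shared batches.

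Some values changed sign. Knockdown library 3 alone against control gave 0.21 for NFE2L2, -0.081 for NQO1, -0.48 for HMOX1, 0.24 for GCLC, -0.032 for GSR, 0.035 for TXNRD1, -0.21 for PRDX1, -0.12 for RBX1, -0.021 for TXNL1 and -0.45 for SOD1; for rescue against that library, HMOX1 was 1.17, GCLC -0.11 and SOD1 0.28. With library size alone PRDX1 was -0.016 against control, and in rescue against knockdown-labelled libraries NFE2L2 was 0.10, HMOX1 0.20 and GCLM 0.22. GCLM, at -0.0035 in that comparison, was 0.0029 with DESeq2 size factors, 0.0031 with no filter, 0.0070 with a filter of 1 CPM, 0.0057 with DESeq2, 0.0272 with limma-voom and 0.0034 with the replicate block. Without 1 library, knockdown-labelled against control ran from -0.16 to 0.10 for GCLC, -0.29 to 0.045 for NFE2L2 and -0.36 to 0.25 for UGT2B28, and rescue against knockdown-labelled from -0.12 to 0.16 for GCLM, -0.52 to 0.19 for HMOX1 and -0.25 to 0.085 for NFE2L2. The cause of these changes was not tested.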

Other observations

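Several classical NRF2 targets were at the edge of detection in all 9 libraries, and these genes were singled out after their values were seen. AKR1C1, AKR1C2 and AKR1C3, aldo-keto reductases that also act on steroids, had at most 1 count (AKR1C1) or 0 counts (AKR1C2 and AKR1C3) in any library, where 0 counts allow up to 3 by counting error alone. These 3 paralogs are alike in sequence, and how shared reads were counted is not known here. ME1, the cytosolic malic enzyme, and the aldo-keto reductase AKR1B10 had at most 2 counts, ALDH3A1 had 0 and the exporter ABCC3 at most 6.

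GSTP1, a glutathione transferase gene that is methylated and silent in most prostate cancers, was abundant here, an observation also made after the values were seen. It lay at 515 ± 23.1 CPM in control, 568 ± 151 CPM in knockdown-labelled and 432 ± 28.9 CPM in rescue libraries (SD, n = 3), and passed in no comparison (edgeR adjusted p = 0.727, 0.196 and 0.711 for knockdown-labelled against control, rescue against knockdown-labelled and rescue against control). Per length, GSTP1 stood at 270 ± 12.1 CPM per kb in control, between PRDX1 and GSR.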
